A study of Mus musculus with 9 samples.

Results

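Guanylate-binding proteins (GBPs) and immunity-related GTPases (IRGs) are 2 families of GTPases that cells make in response to interferon. Transcripts of 10 of their genes were followed in transferred CD8+ T cells: Gbp2, Gbp3, Gbp4, Gbp5, Gbp6, Gbp7, Gbp8, Gbp9, Irgm1 and Igtp. They were 10 of 32019 named array rows tested. For each gene the row with the highest mean log2 level over the 9 arrays was to be taken, and each gene had 1 row, so that the mean decided nothing. The mean level of the 10 rows lay between 4.76 and 7.97. The row of Gbp5 also names Gbp2b, and the row of Gbp6 also names Gbp10, so that these rows cannot be assigned to 1 gene.

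The cells were T cells of pmel1 mice, whose transgenic receptor recognises gp100, an antigen of pigment cells and melanoma. Each recipient, a congenic mouse not immunised before, received 2000000 Thy1.1+ CD8+ pmel1 cells and 100 µg of human gp100 peptide by vein. All groups also received 400 µg of antibody. The combination group had 200 µg of AT124, an agonist antibody to the costimulatory receptor CD27, with 100 µg of RMP1-14 against PD-1 and 100 µg of 10F.9G2 against PD-L1. The anti-CD27 group had 200 µg of AT124 with 200 µg of isotype control antibody. The anti-PD-1/L1 group had 100 µg of each blocking antibody with 200 µg of isotype control antibody. Every group held 3 mice, with 1 array for each mouse, and the Thy1.1+ CD8+ cells were sorted from the spleen on day 4. None of the groups had peptide with isotype control alone, the recipients kept their own T cells, and all transferred cells shared 1 receptor, which limits what the groups model.

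Interferon gamma induces the transcription factor IRF1, which acts on the promoters of GBP and IRG genes. Type I interferons induce many of the same genes. In macrophages and other infected cells of the mouse, GBPs gather on the vacuoles of intracellular pathogens and take part in inflammasome activation. Irgm1 and Igtp (also called Irgm3) regulate the other IRG proteins on host membranes. In mice without Irgm1, activated T cells survive poorly when interferon gamma is present, so that the family also matters to T cells themselves.

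The 10 genes lie on 3 chromosomes of the mouse genome. In the order of GRCm38.p6, Gbp5, Gbp7, Gbp3, Gbp2b and Gbp2 are neighbours on chromosome 3 with 0 protein-coding genes between them. Gbp8, Gbp9, Gbp4, Gbp10, Gbp6 and Gbp11 are neighbours on chromosome 5, again with 0 between them. Irgm1 and Igtp lie apart from each other on chromosome 11. The genes of the chromosome 5 cluster are close paralogs. How far the probes of each row measure only their own gene was not tested, since probe sequences were not used here.

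Promoter windows of RefSeq (GRCm38.p6), from 250 bases before to 50 bases after an annotated start, were matched for 6 of the 10 genes: Gbp2, Gbp3, Gbp5, Gbp7, Irgm1 and Igtp. Gbp4, Gbp6, Gbp8 and Gbp9 are named only. The windows were searched on both strands for 2 copies of GAAA with any 2 bases between them, the core of the interferon-stimulated response element (ISRE) to which IRF factors bind. All 6 genes had a match, in 6 of their 7 windows. The exception was a second window of Gbp3, which starts further downstream. Of all 32851 windows of this length, 3.44% had a match. The matches are shown as a description. The genes were chosen as interferon-inducible, so their share of matches is not independent of that choice. Gbp2, Gbp3, Gbp5 and Gbp7 also lie in the same cluster, so their windows may not be independent of each other. Each is given 5′ to 3′ on the strand of the gene with the bases around it, and capitals mark the letters of the element or of its reverse complement.
Gbp2, chr3:142620594-142620623, plus strand: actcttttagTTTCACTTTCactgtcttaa
Gbp3, chr3:142559989-142560024, plus strand: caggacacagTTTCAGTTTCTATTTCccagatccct
Gbp5, chr3:142496759-142496788, plus strand: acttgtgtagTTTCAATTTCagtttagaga
Gbp7, chr3:142530273-142530302, plus strand: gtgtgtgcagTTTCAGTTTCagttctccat
Irgm1, chr11:48871425-48871460, minus strand: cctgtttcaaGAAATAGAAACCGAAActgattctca
Igtp, chr11:58199512-58199541, plus strand: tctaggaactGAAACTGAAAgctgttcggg

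In Gbp3 and Irgm1 the capitals are 2 overlapping matches. The match ended 50 bases before the start in Gbp2, 44 in Gbp7, 30 in Gbp3, 25 in Igtp and 15 in Irgm1. In Gbp5 it lay further away and ended 156 bases before the start. The letters TTCNNNGAA, the core of the gamma-activated site, read the same on both strands and were found in Gbp5, Gbp7 and Igtp. Of all windows, 8.30% held them. Gbp5 and Gbp7 had 2 such sites each, and Igtp had 1. Gbp7 is shown at length as the gene whose values differed most between groups. Its 250 bases before the start, chr3:142530086-142530335 on the plus strand, are shown with both kinds of match in capitals.
Gbp7 promoter: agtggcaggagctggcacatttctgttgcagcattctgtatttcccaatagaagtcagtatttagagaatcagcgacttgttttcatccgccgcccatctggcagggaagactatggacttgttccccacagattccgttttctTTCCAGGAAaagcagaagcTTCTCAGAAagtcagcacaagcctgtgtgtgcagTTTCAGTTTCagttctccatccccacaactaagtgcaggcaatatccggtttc

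The 3 anti-PD-1/L1 arrays stood apart from the other 6 in control probe sets, and every comparison with them carries this. Positive control probe sets averaged 6.81 ± 0.04 in combination, 6.70 ± 0.02 in anti-CD27 and 5.75 ± 0.19 on the anti-PD-1/L1 arrays (log2 level, SD, n = 3 each). Background control probe sets averaged 3.25 ± 0.04, 3.27 ± 0.06 and 4.06 ± 0.08 in combination, anti-CD27 and anti-PD-1/L1. Set against anti-PD-1/L1, each gave p = 0.1 in a two-sided exact permutation test, the smallest p that 3 arrays against 3 allow. The positive controls of combination and anti-CD27 did not overlap either (p = 0.1 by the same exact test). T cell markers were lowest on the same 3 arrays as the positive controls, with a mean over 7 of 8 listed genes of 9.81 to 9.93 in combination, 9.97 to 9.99 in anti-CD27 and 8.43 to 9.06 in anti-PD-1/L1. Lists of B cell, macrophage, neutrophil, NK cell (a list that also holds Kit and Gata2), erythroid and platelet markers had means of 2.59 to 4.22 in combination, 2.61 to 4.24 in anti-CD27 and 2.81 to 4.72 in anti-PD-1/L1. Each of these 6 lists had a higher mean on every anti-PD-1/L1 array than on the other 6, as did the background controls. All measured rows of these lists were below the 95th percentile of the background control probe sets in every group. Whether the higher means reflect cells of these types was not tested. Among B cell rows, 1 of 6 (Cd22) was called higher by limma in combination than in anti-PD-1/L1, and 4 were called lower. Among macrophage rows, 1 of 8 (Cd68) was called higher and 6 lower. Dendritic cell markers had means of 3.44 to 3.50 in combination, 3.09 to 3.17 in anti-CD27 and 3.38 to 3.53 on anti-PD-1/L1 arrays. Of that list 1 of 8 genes passed between combination and anti-CD27, Itgax, an integrin chain that activated T cells also carry, which was higher by at least 2.73 ± 0.14 (limma adjusted p = 0.000195). The labels give no batch, so the treatment and any difference in handling of these 3 arrays cannot be told apart. In bulk RNA, fewer cells of a type and less RNA per cell cannot be told apart either.

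**Figure D1:**
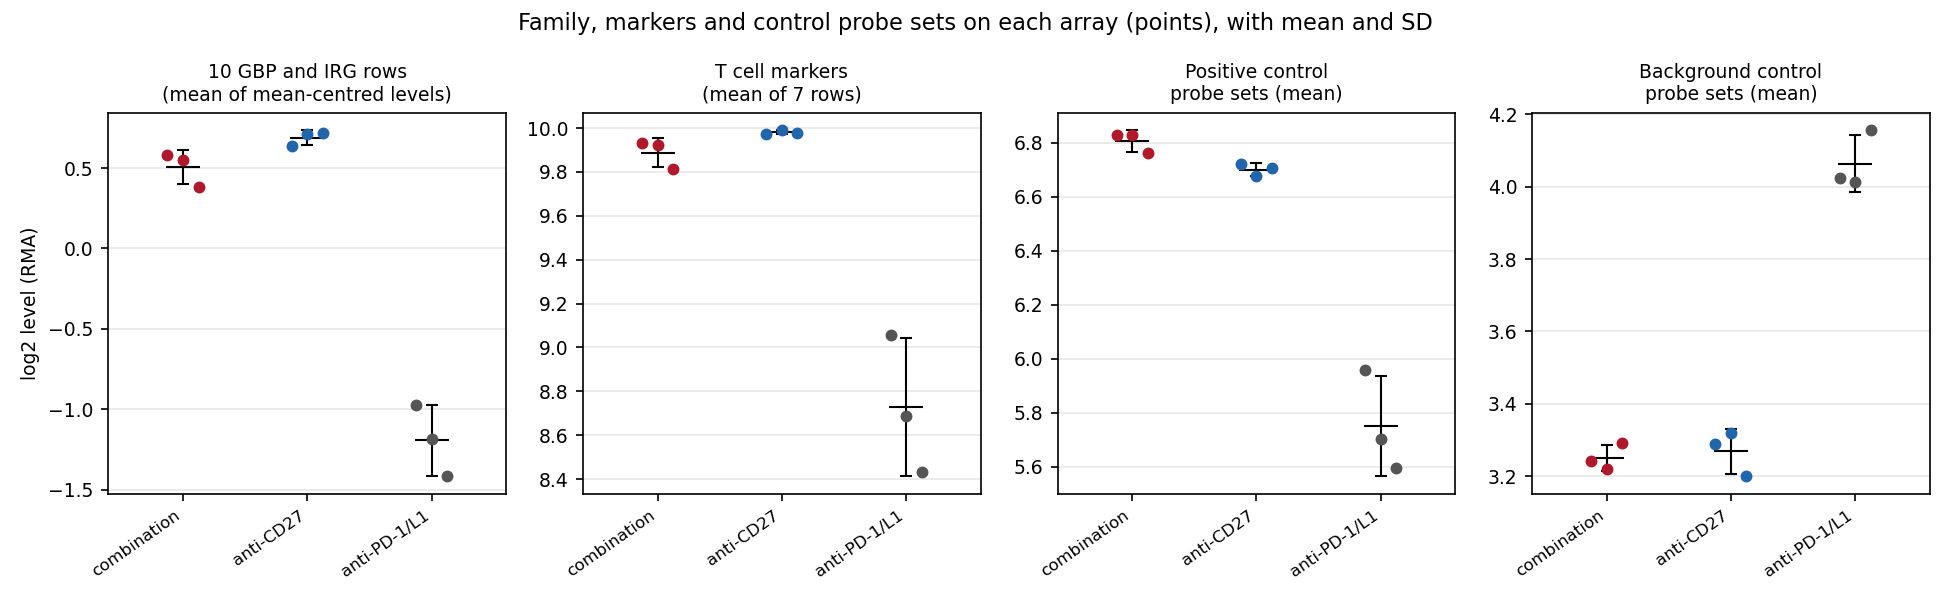
Log2 levels on each array of the 3 groups, with mean and SD of 3 arrays: the mean of the mean-centred levels of the 10 GBP and IRG rows, the mean of 7 T cell markers, and the means of positive and background control probe sets. The family, the T cell markers and the positive controls are lowest on the 3 anti-PD-1/L1 arrays, and the background controls are highest there, at 4.06 against 3.25 and 3.27.

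The combination was first set against anti-CD27, the groups that differ in whether PD-1 and its ligand were blocked as well. Of the 10 genes, 0 passed limma's test at an adjusted p of 0.05. Over all rows 1.73% passed in this comparison, 0.509% lower and 1.22% higher. The measured values lay lower in combination for 8 genes and higher for 2, with a median log2 difference of -0.12, against -0.0031 over all rows. The lower values gathered in the chromosome 5 cluster, whose 4 genes differed by -0.35 to -0.55, while the 4 genes of the chromosome 3 cluster differed by -0.13 to 0.26.

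Gbp9 was at 8.09, 8.12 and 7.89 in combination, against 8.50, 8.60 and 8.64 in anti-CD27. All 3 combination arrays were below all 3 anti-CD27 arrays, and the log2 difference was -0.55 ± 0.13 (SE, limma adjusted p = 0.0855), which is 1.46-fold lower. Gbp8 was at 7.04, 6.99 and 6.72 in combination, against 7.38, 7.49 and 7.39 in anti-CD27. The groups did not overlap, and the difference was -0.50 ± 0.14 (limma adjusted p = 0.148). The row of Gbp6 and Gbp10 was at 8.56, 8.57 and 8.29 in combination, against 8.91, 9.02 and 8.97 in anti-CD27. Again no array overlapped, with a difference of -0.49 ± 0.14 (limma adjusted p = 0.187). In the mouse, Gbp6 and Gbp10 have been tied to defence against bacteria in macrophages. Gbp4 was at 8.12, 8.07 and 7.85 in combination, against 8.28, 8.42 and 8.40 in anti-CD27, and its difference was -0.35 ± 0.11 (limma adjusted p = 0.262). The remaining gene of the cluster, Gbp11, no member of the list and chosen after its values were seen, differed by -0.37 ± 0.11 (limma adjusted p = 0.203).

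In each of these genes the third combination array was the lowest of its group, and the first anti-CD27 array was the lowest of its group in Gbp9, Gbp8, Gbp6 and Gbp4. With only the 6 arrays compared in the fit, 5 of 10 members were called: Gbp6, Gbp8, Gbp9 and Gbp5 fell and Gbp3 rose. With array weights 5 were called as well: Gbp4, Gbp6, Gbp8 and Gbp9 fell and Gbp3 rose. These settings also raised the count of all rows called, to 1719 and 2637, against 555 in the fit of all 9 arrays.

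The chromosome 3 cluster did not share a direction. Gbp3 was at 6.05, 6.15 and 6.02 in combination, against 5.80, 5.83 and 5.83 in anti-CD27. It was the 1 gene whose arrays lay wholly higher in combination, by 0.26 ± 0.09 (limma adjusted p = 0.336). The row of Gbp5 and Gbp2b was at 5.04, 5.03 and 5.03 in combination, against 5.16, 5.14 and 5.17 in anti-CD27, a difference of -0.13 ± 0.07 (limma adjusted p = 0.683). Gbp5 promotes the NLRP3 inflammasome in mouse macrophages. Without overlap between groups, 5 of the 10 genes lay lower and 1 higher in combination, which 8.52% and 12.0% of all rows did.

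Gbp7, which in mouse macrophages aids killing of bacteria, was at 9.01, 9.10 and 8.76 in combination, against 8.76, 8.87 and 8.85 in anti-CD27. The groups overlapped, and the difference was 0.13 ± 0.10 (limma adjusted p = 0.909). Gbp2, a lipid-anchored GBP that coats pathogen vacuoles, was at 8.09, 8.01 and 7.85 in combination, against 7.98, 8.17 and 8.12 in anti-CD27. Its groups overlapped too, with a difference of -0.11 ± 0.19 (limma adjusted p = 1).

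The IRG genes lay closest to 0. Irgm1 was at 7.33, 7.12 and 7.12 in combination, against 7.19, 7.12 and 7.27 in anti-CD27, and the difference was -0.0063 ± 0.092 (limma adjusted p = 1). Its sign turned when combination replicate 2 or 3 or anti-CD27 replicate 3 was left out. Igtp was at 7.67, 7.49 and 7.51 in combination, against 7.55, 7.64 and 7.70 in anti-CD27, and differed by -0.07 ± 0.21 (limma adjusted p = 1). Its neighbour Irgm2, also an IRG regulator, differed by -0.09 ± 0.09 (limma adjusted p = 1). The row of Tgtp1 and Tgtp2, which encode an IRG effector and lie on chromosome 11 as well, differed by -0.50 ± 0.18 (limma adjusted p = 0.352). That row passed with the positive control covariate (-0.69, limma adjusted p = 0.0463) and with array weights (-0.47, limma adjusted p = 0.0356).

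**Figure D2:**
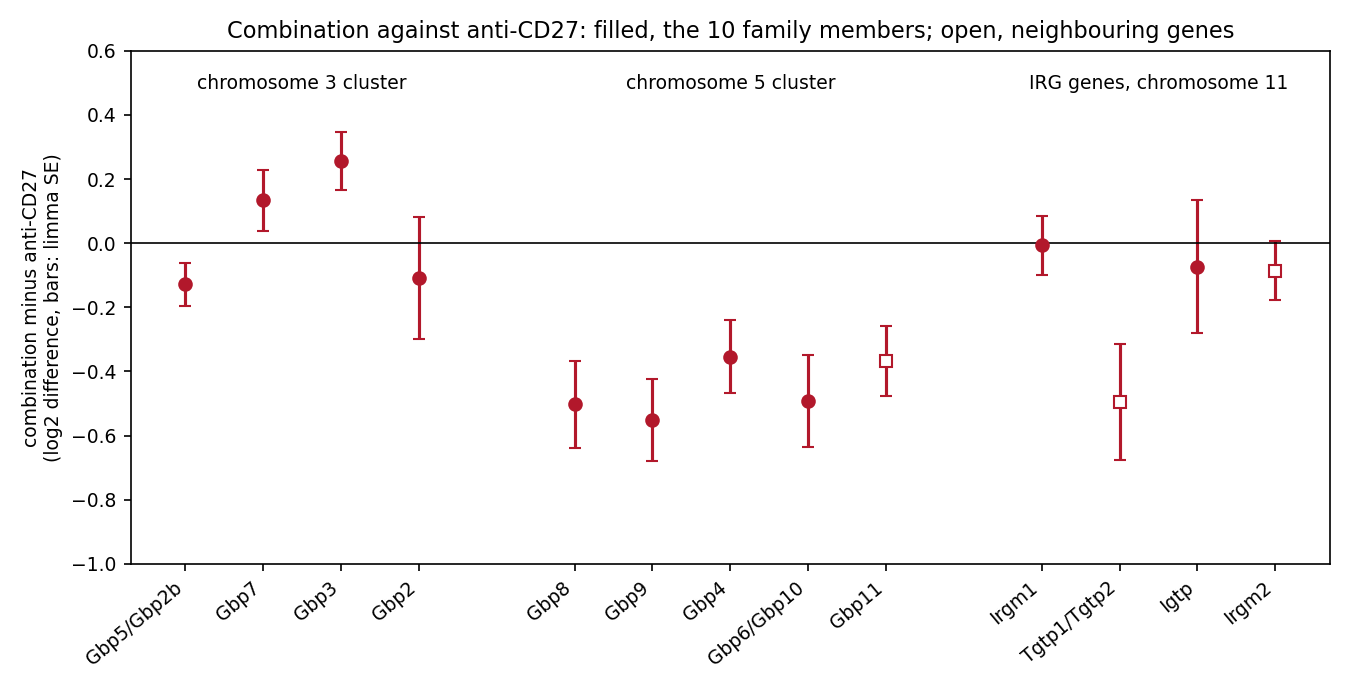
Log2 difference of combination minus anti-CD27 with limma's SE for the 10 genes (filled) and 3 other rows (open), grouped by chromosome. The 5 rows of the chromosome 5 cluster lie between -0.35 and -0.55 and the row of Tgtp1 and Tgtp2 at -0.50, while those of the chromosome 3 cluster and the rows of Irgm1, Igtp and Irgm2 lie between -0.13 and 0.26.

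Against anti-PD-1/L1, all 10 genes rose in combination and all 10 rose in anti-CD27. Over all rows, 72.1% were called for combination (19.1% higher, 53.0% lower) and 70.5% for anti-CD27 (17.2% higher, 53.2% lower). Among the 50% of rows with the highest means, 36.8% rose and 40.3% fell in combination, and 33.3% rose and 40.9% fell in anti-CD27. The median log2 difference of the 10 genes was 1.61 for combination and 2.06 for anti-CD27, where that of all rows was -0.25 and -0.26. Both comparisons use the same 3 anti-PD-1/L1 arrays. After quantile normalization the median of all rows was -0.03 in both, and that of the genes 1.28 and 1.77.

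Group means were called not clearly above background when they did not exceed the 95th percentile of the background control probe sets, which was 6.83 for combination, 6.94 for anti-CD27 and 8.27 for anti-PD-1/L1. All 10 genes were below this bound in anti-PD-1/L1, and Gbp3 and Gbp5 were below it in every group. The other 8 differences from anti-PD-1/L1 are therefore written with "at least". This wording concerns the background bound alone and sets no limit over all fits. The median difference was smaller after quantile normalization and with the positive control covariate. All 10 genes were above the mean of the background controls in every group.

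Gbp7 stood out by size. It was at 9.01, 9.10 and 8.76 in combination and 8.76, 8.87 and 8.85 in anti-CD27, against 5.05, 4.87 and 4.83 in anti-PD-1/L1. The 6 arrays with CD27 agonism lay more than 3 log2 units above the other 3. The difference was at least 4.04 ± 0.10 for combination (limma adjusted p = 2.75e-08), or 16.4-fold, and at least 3.91 ± 0.10 for anti-CD27 (limma adjusted p = 3.86e-08).

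Gbp2 was at 6.20, 5.49 and 5.39 in anti-PD-1/L1, below every array of combination (7.85 to 8.09) and anti-CD27 (7.98 to 8.17). It rose by at least 2.29 ± 0.19 in combination and by at least 2.40 ± 0.19 in anti-CD27. Of the other genes on chromosome 3, Gbp5 was at 4.24, 4.01 and 4.01 in anti-PD-1/L1 and differed by 0.95 ± 0.07 in combination and 1.07 ± 0.07 in anti-CD27. Gbp3 was at 5.48, 5.15 and 5.49 in anti-PD-1/L1, with the smallest differences of the family, 0.70 ± 0.09 in combination and 0.44 ± 0.09 in anti-CD27 (limma adjusted p = 0.0025). The call in anti-CD27 was lost after quantile normalization (0.26, limma adjusted p = 0.0803).

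The chromosome 5 genes had anti-PD-1/L1 levels of 6.30, 6.25 and 5.90 for Gbp4, 6.78, 6.50 and 6.17 for Gbp6, 5.63, 5.72 and 5.22 for Gbp8, and 6.39, 6.33 and 5.90 for Gbp9. No array overlapped with the other groups. Their rises were at least 1.40 to 1.99 in combination and at least 1.90 to 2.48 in anti-CD27.

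Irgm1 was at 6.55, 6.37 and 6.24 in anti-PD-1/L1, and rose by at least 0.80 ± 0.09 in combination and in anti-CD27. Igtp was at 6.79, 6.58 and 5.84 in anti-PD-1/L1, the widest spread of any group of this gene. It rose by at least 1.15 ± 0.21 in combination (limma adjusted p = 0.00109) and by at least 1.23 ± 0.21 in anti-CD27 (limma adjusted p = 0.000812). No array of either gene overlapped with the other groups, which 19.0% of rows did upward in combination and 17.6% in anti-CD27.

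With the mean of the positive control probe sets as a covariate, 1 of the 10 genes passed in each of these comparisons, Gbp7. Its difference was then 3.26 ± 0.39 for combination (limma adjusted p = 0.0114) and 3.21 ± 0.35 for anti-CD27 (limma adjusted p = 0.00779). Of the genes outside the family that are named below, Gvin1, Jak1, Psme2 and Rnf213 also kept their calls in both comparisons. The count of all rows called fell to 2009 for combination, against 23077, and to 2555 for anti-CD27, against 22567. In that fit Gbp2, Irgm1 and Igtp turned sign for combination, at -0.12, -0.10 and -1.16, and Irgm1 and Igtp for anti-CD27, at -0.0068 and -0.85. The covariate separates the anti-PD-1/L1 arrays from the others, so the fit rests on its slope within groups of 3 arrays.

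**Figure D3:**
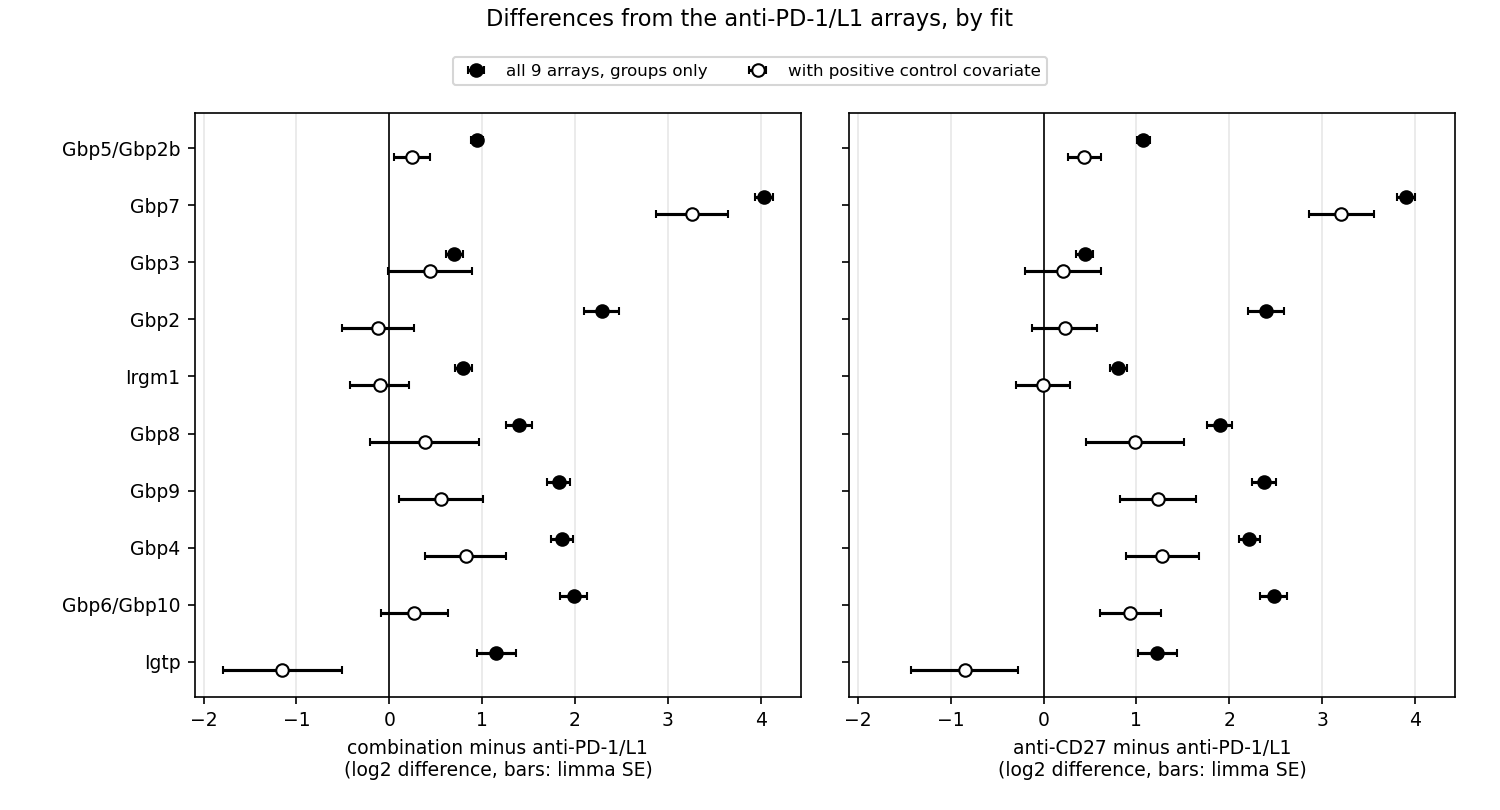
Log2 differences of combination (left) and anti-CD27 (right) from anti-PD-1/L1 with limma's SE for the 10 genes, from the fit of groups alone (filled) and with the positive control covariate (open). All 10 genes lie lower with the covariate, and Gbp7 stays above 3 in both fits. With the covariate Igtp and Irgm1 lie below 0 in both panels, and Gbp2 lies below 0 on the left.

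**Figure D4:**
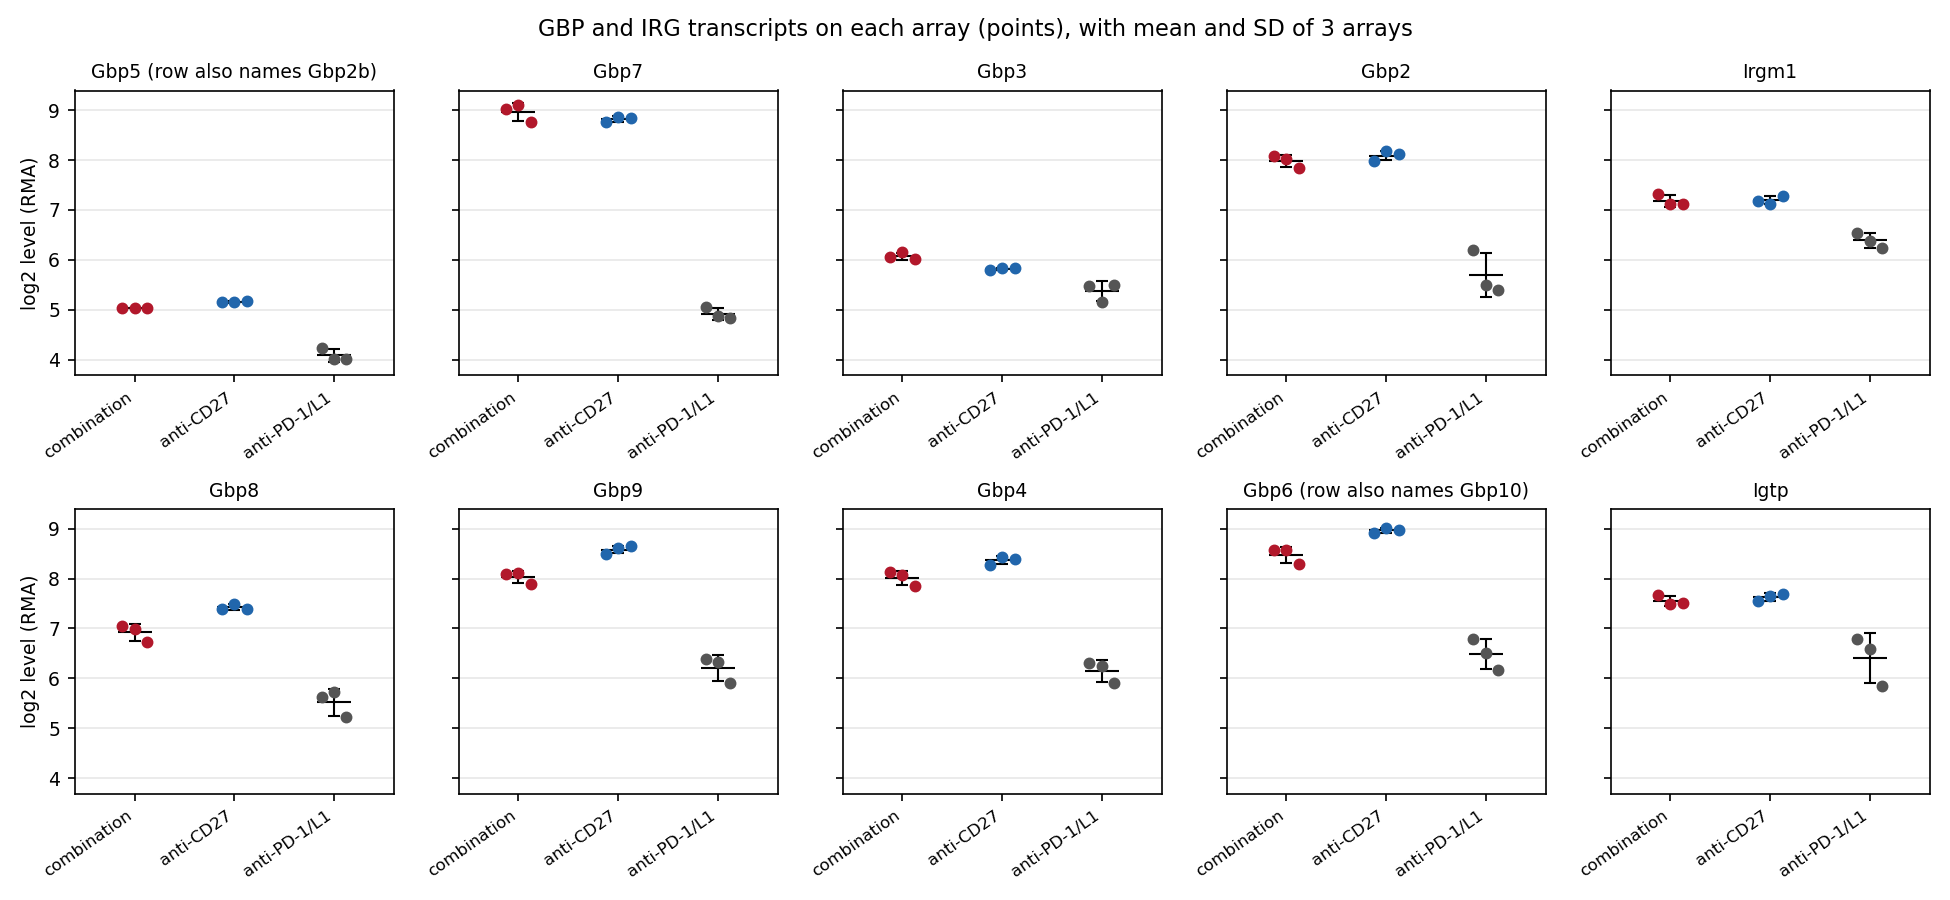
Log2 level of each of the 10 genes on each array (points) in combination, anti-CD27 and anti-PD-1/L1, with mean and SD of 3 arrays. Levels of different rows are not comparable with each other. In every panel the anti-PD-1/L1 arrays lie lowest, and combination lies below anti-CD27 without overlap in Gbp5, Gbp8, Gbp9, Gbp4 and Gbp6.

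Other interferon-inducible GTPases were listed beside the family, with 12 rows apart from those of the members. Of these, 0 passed between combination and anti-CD27. Against anti-PD-1/L1, 6 rose and 3 fell in combination, and 8 rose and 3 fell in anti-CD27. Over all rows 19.1% rose and 53.0% fell in combination, and 17.2% rose and 53.2% fell in anti-CD27. The 3 rows that fell, Irgc1, Irgq and Gm4951, were below the background bound in every group. Gvin1, a very large GTPase induced by interferon, rose by at least 2.88 ± 0.09 in combination and at least 2.82 ± 0.09 in anti-CD27. Tgtp1 and Tgtp2 rose by at least 1.61 ± 0.18 and 2.11 ± 0.18. Irgm2, below the background bound in every group, differed by 0.85 ± 0.09 and 0.94 ± 0.09. With the covariate Irgm2 turned sign in both comparisons and Tgtp1 in combination, and Tgtp1 lost its call in anti-CD27 (0.33, limma adjusted p = 0.738). The row of Ifi47, which also names Olfr56, differed by 0.012 ± 0.052 in combination (limma adjusted p = 0.845) but by 0.41 after quantile normalization (limma adjusted p = 0.000566), and lay below the mean of the background controls in anti-PD-1/L1. Iigp1 was below that mean in combination and anti-PD-1/L1 and is not read further.

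In the interferon gamma pathway, 1 of 16 rows passed between combination and anti-CD27. This was Ifngr2, the signalling chain of the interferon gamma receptor, which fell by 0.48 ± 0.07 (limma adjusted p = 0.0134), at levels below the background bound in every group. This call was lost without combination replicate 1 or 3 or anti-CD27 replicate 1 or 2 (limma adjusted p of 0.0637, 0.059, 0.075 and 0.0749). Its levels were 4.02, 4.16 and 4.08 in combination, against 4.63, 4.61 and 4.45 in anti-CD27. Ifngr1, the ligand-binding chain, differed by 0.36 ± 0.17 (limma adjusted p = 0.572) and Ifng, the cytokine, by 0.21 ± 0.28 (limma adjusted p = 1). Ifngr1 was called higher with only the 6 arrays compared (limma adjusted p = 0.0434) and with array weights (limma adjusted p = 0.0191). Irf1, the transcription factor that acts on GBP promoters, differed by -0.25 ± 0.08 (limma adjusted p = 0.283), with no overlap between groups. Socs1, an inhibitor of the pathway, differed by -0.19 ± 0.07 (limma adjusted p = 0.36), and was called lower with array weights (limma adjusted p = 0.0333).

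Against anti-PD-1/L1, 10 of the 16 rows rose and 4 fell in combination, and likewise 10 rose and 4 fell in anti-CD27. Ifng and Socs1 were not clearly above background in any group, and the other genes named here were not in anti-PD-1/L1. Jak1, a kinase of the interferon receptors, rose by at least 3.01 ± 0.08 in combination and at least 2.97 ± 0.08 in anti-CD27. Ifng rose by 1.498 ± 0.283 and 1.28 ± 0.28, Irf1 by at least 0.98 ± 0.08 and 1.23 ± 0.08, and Ifngr1 by at least 1.26 ± 0.17 and 0.90 ± 0.17, though with the covariate Ifng and Ifngr1 turned sign in both comparisons. Socs1 moved the other way and fell by 0.82 ± 0.07 in combination and by 0.63 ± 0.07 in anti-CD27. With the covariate Irf1 lost its calls (0.60, limma adjusted p = 0.375, and 0.89, limma adjusted p = 0.16), and so did Socs1 (-0.56, limma adjusted p = 0.338, and -0.40, limma adjusted p = 0.446). Ifng varied on the anti-PD-1/L1 arrays, at 5.85, 4.63 and 5.24, as did its receptor chain Ifngr1, at 7.02, 6.54 and 6.23.

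Type I interferon genes gave the largest share of calls between combination and anti-CD27, with 5 of 20 rows lower and 0 higher. Ifit1, which binds foreign RNA ends, fell by at least 0.99 ± 0.16 (limma adjusted p = 0.0193), Rsad2, the antiviral protein viperin, by 0.73 ± 0.12 (limma adjusted p = 0.0231), and Ifit3 by 0.73 ± 0.07 (limma adjusted p = 0.00231). Rsad2 and Ifit3 were below the background bound in every group, and Ifit1 was below it in combination. The median of that list was -0.22, against -0.12 for the 10 GTPase genes. Whether the lists differ was not tested. With only the 6 arrays compared, Rsad2 lost its call (limma adjusted p = 0.0523). Leaving out anti-CD27 replicate 1 or 2 or combination replicate 2 ended the calls of Ifit1, Rsad2 and Rnf213 (limma adjusted p of 0.0592 to 0.114), as did combination replicate 3 for Ifit1 and anti-CD27 replicate 3 for Ifit1 and Rsad2, while Ifit3 passed each time. In the list of inflammasome and cell-autonomous defence, 1 of 10 rows passed, Rnf213, an interferon-inducible ubiquitin ligase, which was above the bound in both groups and fell by 0.74 ± 0.11 (limma adjusted p = 0.0124).

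Class I presentation and immunoproteasome genes had 0 of 12 rows called between combination and anti-CD27, with the largest difference in the row of Psme2, a proteasome activator subunit (-0.24 ± 0.17, limma adjusted p = 0.877). Genes of LC3 and GABARAP conjugation, which direct IRG and GBP proteins to vacuoles, had 0 of 10 called, and Map1lc3b, below the bound in every group, differed most, by -0.17 ± 0.06 (limma adjusted p = 0.388). Against anti-PD-1/L1 the LC3 list was split, with 1 up and 2 down in combination and 3 up and 4 down in anti-CD27. Its member Map1lc3a, below the bound in every group, fell by 0.72 ± 0.08 in combination and by 0.62 ± 0.08 in anti-CD27, and lost both calls with the covariate (limma adjusted p of 0.254 and 0.264). Of the class I list, 9 of 12 rows rose and 2 fell in combination, and 9 rose and 3 fell in anti-CD27, with Psme2 higher by at least 2.63 ± 0.17 and 2.87 ± 0.17. Of the type I interferon list, 19 of 20 rows rose in combination and 18 in anti-CD27, and 0 fell. Ifih1, an RNA sensor below the bound in every group, rose by 2.37 ± 0.13 in combination and 2.51 ± 0.13 in anti-CD27. Ifit1 rose by 1.89 ± 0.16 in combination, where it too was below the bound, and by at least 2.88 ± 0.16 in anti-CD27. With the covariate the calls of Ifih1 (1.98, limma adjusted p = 0.121, and 2.15, limma adjusted p = 0.0736) and Ifit1 (0.72, limma adjusted p = 0.556, and 1.82, limma adjusted p = 0.116) were lost. Of the inflammasome list, 7 of 10 rose and 2 fell in both comparisons, and Rnf213 rose by at least 3.32 ± 0.11 in combination and at least 4.06 ± 0.11 in anti-CD27.

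Within groups the genes of the chromosome 5 cluster also varied together from mouse to mouse. Pearson's r of the deviations from the group means, over 9 arrays, lay between 0.84 and 0.97 for the 6 pairs of Gbp4, Gbp6, Gbp8 and Gbp9. For the 6 pairs of Gbp2, Gbp3, Gbp5 and Gbp7 it lay between 0.38 and 0.93, and for the 16 pairs between the clusters between -0.39 and 0.89. These are descriptions of 9 arrays, in which all rows share the RNA and the normalization of an array. Pairs of rows outside the family were not compared, and Gbp3 and Gbp5 were below the background bound in every group. Over all 45 pairs the median was 0.71, and 0.61 over the 6 arrays of combination and anti-CD27.

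The 5 other genes whose levels over the 9 arrays were most like the mean of the family were Parp9, 4930523C07Rik, Smap1, Ifi203-ps and Tank, with r between 0.9975 and 0.9995. Over the 6 arrays of combination and anti-CD27 r was 0.970 for Parp9 and 0.833 for Smap1, the highest and the lowest of the 5. Parp9 was at 6.94, 6.90 and 6.80 in combination and 6.92, 7.01 and 6.98 in anti-CD27, against 5.91, 5.75 and 5.63 in anti-PD-1/L1. Parp9 was picked by its likeness to the family over these same 9 arrays. Its lowest levels on the anti-PD-1/L1 arrays follow from that choice and are no separate result.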

How the data were processed

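The authors deposited log2 levels, 1 per probe set and array. The submitters' processing notes name RMA and oligo 1.38.0. The genome build of the probe sets is not given in the sources used here. Of 72688 probe sets, 6732 were controls and 65956 measured transcripts, of which 30604 named 1 gene, 2146 several and 33206 none, by the platform's annotation with 827 symbols updated through a RefSeq table (GRCm38.p6). Per symbol or set of symbols the row with the highest mean was kept, which left 32019 rows with no filter on low values.

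The tests used limma 3.58.1 (R 4.3.3), with 1 mean per group over 9 arrays, 6 residual degrees of freedom, two-sided moderated tests and Benjamini-Hochberg adjustment over all 32019 rows. A row was called at an adjusted p under 0.05, and every adjusted p comes from this fit unless stated. The test was checked on simulated data. The simulated rows were independent of each other and held no shift of whole arrays. That check therefore does not cover the way the anti-PD-1/L1 arrays stood apart in control probe sets. Mice limit the precision, with 3 in each group. The members and gene lists were chosen with earlier results of these data known. The rule for named genes took all members, 11 genes fixed by name and up to 3 called rows per list, or the row with the largest difference where none was called, and the 5 single-gene rows most like the family by Pearson's r with its mean. For the comparisons with anti-PD-1/L1, 1 row per list is named, a limit set for length after the values were seen. Alternatives were quantile normalization, a filter on dim rows, rows with 1 gene, all transcript probe sets, 6 arrays, a replicate block, trend and robust eBayes, array weights, a positive control covariate and leaving out each array.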

Additional observations from a re-analysis of the deposited data

How the results depend on the processing

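Between combination and anti-CD27, 0 of the 10 genes were called in the fit of all 9 arrays, 2 after quantile normalization (Gbp6 and Gbp9), 1 without the 50% of rows with the lowest means (Gbp9), 5 with the 6 arrays alone, 5 with array weights, 2 with the positive control covariate (Gbp6 and Gbp9), and 0 to 2 when 1 array was left out, with 2 (Gbp8 and Gbp9) without anti-PD-1/L1 replicate 3. All rows called numbered 555, against 1719 with the 6 arrays, 2637 with array weights and 164 to 1255 when 1 array was left out, the highest without anti-PD-1/L1 replicate 1 and the lowest without anti-CD27 replicate 1. The share of higher calls was 70.6%, 59.9% after quantile normalization and 58.2% with the covariate. Against anti-PD-1/L1, 10 genes were called for combination and for anti-CD27, and 1 in each with the covariate, whose cause was not tested. All rows called there were 23077 and 22567, then 12374 and 11906 without dim rows, 42358 and 42213 over all transcript probe sets, and 2009 and 2555 with the covariate. The share of higher calls was 26.5% and 24.5%, and 46.3% in both after quantile normalization, with 46.7% and 44.4% with the covariate. Signs turned with the covariate for combination minus anti-PD-1/L1 in Gbp2 (-0.12), Irgm1 (-0.10), Igtp (-1.16), Ifng (-1.03), Ifngr1 (-0.94), Irgm2 (-0.27), Ifi47 (-0.41), Tgtp1 (-0.37) and Rsad2 (-0.066). For anti-CD27 minus anti-PD-1/L1 they turned in Irgm1 (-0.0068), Igtp (-0.85), Ifng (-0.99), Ifngr1 (-1.08), Ifngr2 (-0.082), Irgm2 (-0.073) and Map1lc3b (-0.34). For combination minus anti-CD27 they turned in Ifng (-0.038), Ifi47 (-0.030), Gvin1 (-0.011) and Jak1 (-0.053). Quantile normalization turned Gvin1 (-0.057) and Jak1 (-0.044) in combination minus anti-CD27, and Ifi47 (0.38) and Map1lc3b (-0.31) in anti-CD27 minus anti-PD-1/L1. Array weights turned Irgm1 (0.0027) between combination and anti-CD27, Iigp1 (-0.022) between combination and anti-PD-1/L1, and Ifi47 (0.00043) between anti-CD27 and anti-PD-1/L1. Leaving out 1 array gave values of -0.076 to 0.034 for Irgm1 and -0.0043 to 0.13 for Gvin1 between combination and anti-CD27, of -0.027 to 0.051 for Ifi47 and -0.052 to 0.12 for Iigp1 between combination and anti-PD-1/L1, and of -0.040 to 0.039 for Ifi47 between anti-CD27 and anti-PD-1/L1.

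The replicate block called 0, 10 and 10 of the genes and 379, 22536 and 21924 of all rows in combination against anti-CD27, combination against anti-PD-1/L1 and anti-CD27 against anti-PD-1/L1. Arrays with the same number in their titles had deviations that correlated between -0.20 and 0.16. With 3 arrays per group these values cannot decide whether such arrays share more than a number, and the labels do not say. Each gene had 1 row, so other rows could not be tried. With the mean of the background controls as the bound, chosen after seeing the data, 0 of 10 genes were not above background in anti-PD-1/L1, in place of 10. The number of mice, 3 per group, limits the precision.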
